A study of Mus musculus with 6 samples.

Results

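A set of 10 immediate early genes was examined in RNA sequencing of adult mouse cardiomyocytes (CMs): the AP-1 genes *Fos*, *Fosb*, *Jun*, *Junb*, *Jund* and *Atf3*, the transcription factor genes *Egr1*, *Ier2* and *Myc*, and the phosphatase gene *Dusp1*. They were chosen by gene symbol as early response genes that also react to the isolation of cells, with earlier results of these data known. These are 10 of the 16448 genes listed in the deposited table, and 10 of 10 were among the 11364 genes that reached a normalized count of at least 10 in at least 3 of the 6 libraries. Normalized counts are read counts on a gene divided by a factor for the size of the library.

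The study asked whether a change of CM metabolism makes heart regeneration possible. It inactivated *Cpt1b*, which is needed to import long-chain fatty acids into mitochondria for oxidation. There were 3 CM samples of *Cpt1b*cKO mice (αMHC-Cre pos/+; *Cpt1b* fl/fl) and 3 of CtrlCre mice (αMHC-Cre pos/+; *Cpt1b* +/+), all C57BL/6 and 8 to 12 weeks old. Both groups carried the Cre transgene, which is driven by the α-myosin heavy chain promoter and is active in CMs from embryonic stages on. *Cpt1b* encodes the muscle form of carnitine palmitoyltransferase. The mice received no treatment named in the labels. CMs were released from the ventricles by perfusion with digesting enzymes and collected by slow centrifugation, so that each library holds RNA of cells that had been through this procedure, and no library of undigested heart was part of the comparison.

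Immediate early genes are transcribed within minutes of a stimulus without new protein synthesis. Growth factors, stretch, calcium entry and stress reach them through MAP kinases and through the factors SRF, ELK and CREB, and their short-lived mRNAs are soon degraded. FOS and JUN proteins pair through leucine zippers to form AP-1, which binds DNA, and DUSP1 closes the loop by removing phosphate from MAP kinases. In the heart the same genes are known for their induction by pressure load and by enzymatic dissociation.

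The deleted gene and the libraries were checked first. *Cpt1b* was at 1861, 893 and 1443 normalized counts in CtrlCre and at 211, 353 and 285 in *Cpt1b*cKO (log2 fold change −2.27, SE 0.27, adjusted *P* = 0.00338, limma with Benjamini–Hochberg adjustment), lower in each knockout library as the genotype labels state. The normalized counts summed to between 13393411 and 31722217 per library, of which the mitochondrial rRNA gene *mt-Rnr2* took 64.6%, 64.4% and 63.2% in CtrlCre and 61.8%, 72.6% and 80.8% in *Cpt1b*cKO libraries 1, 2 and 3. Without mitochondrial and rRNA genes the sums were between 3146414 and 3551692. By *Xist* RNA 2 libraries were female-like, library 1 of each group (957 in CtrlCre and 1080 in *Cpt1b*cKO, against 23 to 78 in the other 4). Results are therefore given below also for libraries 2 and 3 alone. Transcripts of 8 CM marker genes summed to 317925 to 613757 in each library.

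Across the 10 genes, 0 passed an adjusted *P* of 0.05 in limma, a threshold that 1.57% of all tested genes passed. At an unadjusted *P* below 0.05 there were 3, *Fos*, *Egr1* and *Junb*, which were each lower in *Cpt1b*cKO. Of all tested genes 13.9% had such a *P*, and 7.22% had it with a lower value in *Cpt1b*cKO. The estimate was lower in *Cpt1b*cKO for 7 genes and higher for 3, with a median log2 fold change of −0.21 beside −0.0013 over all tested genes, 50.2% of which were lower. The values of the groups did not overlap for 2 of the 10, *Egr1* and *Junb*, both lower in *Cpt1b*cKO. Over all tested genes 18.7% had groups that did not overlap, and 9.6% had them with *Cpt1b*cKO lower. For 1 gene in 3 libraries against 3, the smallest two-sided *P* of an exact permutation test is 0.1. The *P* values measure the spread between these samples, which no label ties to single mice, and in bulk RNA a smaller share of expressing cells cannot be told apart from less RNA per cell.

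**Figure D1:**
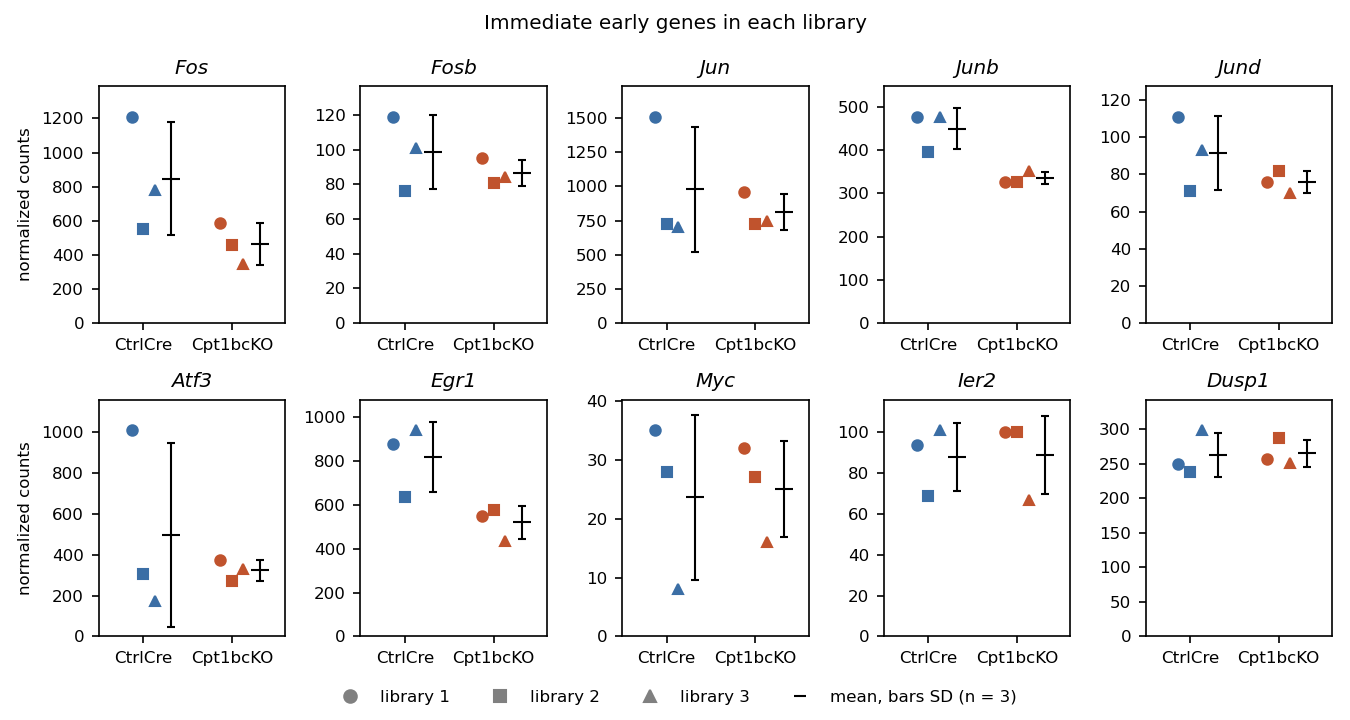
Normalized counts (vertical axes, linear and starting at 0) of each immediate early gene in the 3 CtrlCre and 3 *Cpt1b*cKO libraries, with marker shapes for library numbers and bars for the mean and SD (n = 3). *Junb* and *Egr1* are the 2 genes whose groups do not overlap, and CtrlCre library 1 is far above the other libraries for *Atf3* (1009) and *Jun* (1509).

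Promoter sequence was taken from RefSeq (GRCm38.p6), which matched 7 of the 10 genes. *Egr1*, *Ier2* and *Myc* are named only. The stretches of 200 bases before the annotated start and 30 bases from it on are shown for 4 genes. *Fos* and *Junb* were lower at an unadjusted *P* below 0.05 in limma, and *Jun* and *Dusp1* were not. A relation between the matches in these stretches and the values was not tested, and response elements further upstream are not shown. The stretches lie at chr12:85473690-85473919 (plus strand, *Fos*), chr8:84978719-84978948 (minus strand, *Junb*), chr4:95052193-95052422 (minus strand, *Jun*) and chr17:26508443-26508672 (minus strand, *Dusp1*). Capitals mark matches on either strand to the cAMP response element core (ACGTCA), to the related element bound by CREB, ATF and JUN pairs (TGACNTCA), to the AP-1 site (TGANTCA) and to the TATA element (TATAAA), and each sequence is written 5′ to 3′ along the gene.
Fos: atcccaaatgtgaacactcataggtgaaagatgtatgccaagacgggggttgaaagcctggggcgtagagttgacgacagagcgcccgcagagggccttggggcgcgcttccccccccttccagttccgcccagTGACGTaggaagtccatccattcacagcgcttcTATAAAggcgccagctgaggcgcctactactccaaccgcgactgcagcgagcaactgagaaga
Junb: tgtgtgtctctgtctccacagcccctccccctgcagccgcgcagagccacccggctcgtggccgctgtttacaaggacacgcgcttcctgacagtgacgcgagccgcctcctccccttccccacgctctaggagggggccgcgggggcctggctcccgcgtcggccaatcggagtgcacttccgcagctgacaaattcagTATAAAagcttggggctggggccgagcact
Jun: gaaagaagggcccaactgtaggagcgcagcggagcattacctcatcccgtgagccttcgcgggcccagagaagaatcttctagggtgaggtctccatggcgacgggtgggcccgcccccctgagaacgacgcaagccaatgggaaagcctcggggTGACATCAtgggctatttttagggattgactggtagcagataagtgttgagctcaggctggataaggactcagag
Dusp1: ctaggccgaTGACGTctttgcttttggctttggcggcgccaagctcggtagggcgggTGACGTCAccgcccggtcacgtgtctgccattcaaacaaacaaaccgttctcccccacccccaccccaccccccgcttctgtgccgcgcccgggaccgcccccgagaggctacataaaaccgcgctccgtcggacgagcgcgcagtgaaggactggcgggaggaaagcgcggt
The *Fos* stretch holds 1 cAMP response element core, which begins at position −66 from the start, and a TATA element at position −33. *Jun* holds the 8-base element TGACATCA at position −45. *Dusp1* holds a core at position −191 and the full palindrome TGACGTCA at position −143, where the core matches on both strands and overlaps the TGACNTCA match. In *Junb* the TATA element lies at the RefSeq start itself, which is 30 bases upstream of the start in the deposited table.

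Among all 32544 promoter windows of 250 bases before to 50 bases after a start, 7.55% held the core, 8.62% the TGACNTCA element, 7.79% the AP-1 site and 13.6% the TATA element. Of the 7 immediate early genes with a window, 3 held the core (*Fos*, *Dusp1* and *Atf3*), 2 the TGACNTCA element (*Jun* and *Dusp1*), 2 the TATA element (*Fos* and *Junb*) and 0 the AP-1 site. A CArG box, the letters bound by SRF, was found in 0 of the 7 and in 1.64% of all windows. These are matches of letters in a window, and sites further upstream, CArG boxes included, were not searched. The *Atf3* and *Jund* windows belong to starts 34706 and 1210 bases from those in the deposited table.

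*Fos* encodes the AP-1 subunit whose induction is the usual readout of the early response. It lies at chr12:85473890-85477273 (plus strand, ENSMUSG00000021250) and was measured at 1209, 553 and 779 normalized counts in CtrlCre libraries 1, 2 and 3, and at 589, 456 and 343 in *Cpt1b*cKO libraries 1, 2 and 3. The knockout libraries were low, but the highest of them (589) lay above CtrlCre library 2 (553), so that the groups overlapped. Means were 847 ± 333 and 463 ± 123 (SD, n = 3), a difference of −45.4%. This was the largest estimate among the 10 genes (log2 fold change −0.83, SE 0.28, 95% confidence interval −1.45 to −0.22, unadjusted *P* = 0.0129, adjusted *P* = 0.205, limma). Leaving out 1 library at a time gave −1.10 to −0.54, and the unadjusted *P* rose to 0.0516 without CtrlCre library 1 and to 0.0576 without *Cpt1b*cKO library 3. With the library number as a block the adjusted *P* was 0.0183 (limma), and whether the numbers mark pairs was not settled.

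*Fosb* encodes a second FOS partner, which like FOS pairs with JUN proteins. At chr7:19302696-19310051 (minus strand, ENSMUSG00000003545), it was measured at 119, 76 and 101 in CtrlCre and at 95, 81 and 84 in *Cpt1b*cKO. Each knockout value lay inside the range of the controls (log2 fold change −0.16, SE 0.22, 95% confidence interval −0.64 to 0.31, adjusted *P* = 0.784, limma).

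*Jun* encodes the JUN partner that can pair with FOS, with ATF factors or with itself, and that JNK activates by phosphorylation. The single-exon gene lies at chr4:95049034-95052222 (minus strand, ENSMUSG00000052684). CtrlCre library 1 stood at 1509, while the other CtrlCre libraries were at 725 and 703 and *Cpt1b*cKO libraries at 962, 728 and 745. Library 1 was thus the highest of each group, and libraries 2 and 3 were between 703 and 745 whatever their genotype. The estimate (log2 fold change −0.19, SE 0.27, 95% confidence interval −0.78 to 0.41, adjusted *P* = 0.805, limma) changed its sign to 0.17 without CtrlCre library 1. The antisense gene *Junos*, which overlaps *Jun*, had 0 to 3 normalized counts.

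*Junb* encodes a JUN protein that weakens JUN in some settings and is itself induced early. It is a single-exon gene at chr8:84976910-84978718 (minus strand, ENSMUSG00000052837), measured at 477, 395 and 477 in CtrlCre and at 327, 327 and 352 in *Cpt1b*cKO. Each knockout library was below each control library. The means were 450 ± 47.3 and 335 ± 14.4 (SD, n = 3), a difference of −25.4%. Its estimate was smaller than that of *Fos* but its spread was low, with a residual SD that 93.4% of tested genes equalled or exceeded (log2 fold change −0.42, SE 0.15, 95% confidence interval −0.74 to −0.092, unadjusted *P* = 0.0168, adjusted *P* = 0.228, limma). The unadjusted *P* rose above 0.05 when the summed counts without mitochondrial and rRNA genes were set equal (log2 fold change −0.31, unadjusted *P* = 0.062, limma), without CtrlCre library 3 (unadjusted *P* = 0.0651) and without *Cpt1b*cKO library 2 (unadjusted *P* = 0.051).

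*Jund* encodes the JUN protein that many resting cells already hold. It lies at chr8:70698949-70700616 (plus strand, ENSMUSG00000071076) and was at 111, 71 and 93 in CtrlCre and at 76, 82 and 70 in *Cpt1b*cKO. The groups overlapped, since CtrlCre library 2 lay below 2 of the knockout libraries (log2 fold change −0.25, SE 0.22, 95% confidence interval −0.73 to 0.24, adjusted *P* = 0.666, limma). Counts of *Jund* may include reads of an overlapping antisense gene, because the strand setting of the counting is not given in the sources used here.

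*Atf3* encodes a stress-induced factor that pairs with JUN or binds as a homodimer, often as a repressor. At chr1:191170296-191218039 (minus strand, ENSMUSG00000026628), it was at 1009, 304 and 172 in CtrlCre and at 372, 270 and 329 in *Cpt1b*cKO. The controls spanned 5.87-fold from the lowest to the highest library and the knockouts 1.38-fold, and all 3 knockout values lay within the range of the controls. A residual SD as large as that of *Atf3* was found in 3.46% of tested genes. The estimate of −0.23 (SE 0.49, 95% confidence interval −1.32 to 0.87, adjusted *P* = 0.878, limma) was 0.49 without CtrlCre library 1 and −0.79 without CtrlCre library 3.

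*Egr1* encodes a zinc-finger transcription factor induced through ELK and SRF. The gene (ENSMUSG00000038418, plus strand) was at 878, 637 and 941 in CtrlCre and at 550, 577 and 437 in *Cpt1b*cKO. The lowest control (637) lay above the highest knockout (577). Means were 819 ± 161 and 521 ± 74.3 (SD, n = 3), a difference of −36.3%. Of the 10 genes, *Egr1* had the lowest *P* value (log2 fold change −0.64, SE 0.18, 95% confidence interval −1.05 to −0.23, unadjusted *P* = 0.0055, adjusted *P* = 0.143, limma). The estimate stayed between −0.81 and −0.52, and the unadjusted *P* between 0.0016 and 0.0313, when any 1 library was left out.

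*Ier2* encodes a nuclear protein of the early response. At chr8:84661331-84662852 (minus strand, ENSMUSG00000053560), it was at 94, 69 and 101 in CtrlCre and at 100, 100 and 67 in *Cpt1b*cKO. One low library stood in each group, and the means were 88 ± 16.8 and 89 ± 19.1 (SD, n = 3). The log2 fold change was 0.011 (SE 0.24, 95% confidence interval −0.52 to 0.54, adjusted *P* = 0.989, limma).

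*Myc* encodes the growth-promoting factor that pairs with MAX. It lies at chr15:61985391-61990374 (plus strand, ENSMUSG00000022346) and was the least counted of the 10, at 35, 28 and 8 in CtrlCre and at 32, 27 and 16 in *Cpt1b*cKO. In each group library 3 was the lowest. The log2 fold change was 0.25 with a wide interval (SE 0.52, 95% confidence interval −0.90 to 1.39, adjusted *P* = 0.873, limma). Without CtrlCre library 3 (8 normalized counts) it was −0.37.

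*Dusp1* encodes the dual specificity phosphatase that inactivates p38, JNK and ERK and is induced together with their target genes. It lies at chr17:26505590-26508519 (minus strand, ENSMUSG00000024190) and was measured at 250, 238 and 298 in CtrlCre and at 256, 287 and 251 in *Cpt1b*cKO. All knockout values lay within the range of the controls. The log2 fold change was 0.019 (SE 0.16, 95% confidence interval −0.33 to 0.37, adjusted *P* = 0.974, limma). This interval overlapped those of *Fos* (up to −0.22), *Egr1* (up to −0.23) and *Junb* (up to −0.092), and the genes were not tested against each other.

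**Figure D2:**
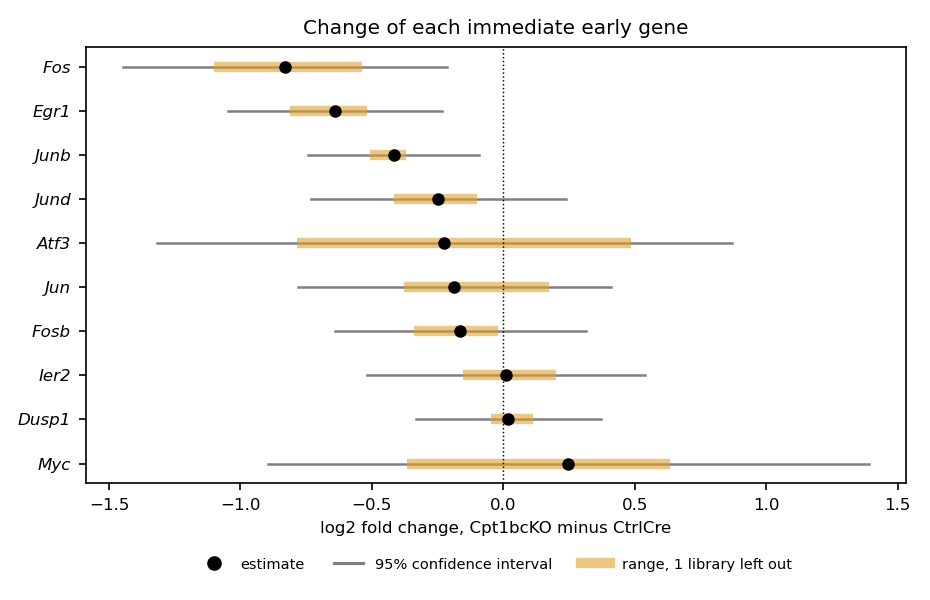
Log2 fold change of each immediate early gene, *Cpt1b*cKO minus CtrlCre (horizontal axis), with its 95% confidence interval in grey and the range obtained by leaving out 1 library at a time in yellow. The intervals of *Fos*, *Egr1* and *Junb* lie below 0, and the yellow range crosses 0 for *Jun*, *Atf3*, *Ier2*, *Myc* and *Dusp1*.

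Levels of different genes were compared per kilobase of exon, from the GENCODE annotation of the same assembly. In CtrlCre, *Fos* was at 360 ± 142 normalized counts per kilobase (SD, n = 3), *Jun* at 307 ± 144, *Junb* at 249 ± 26.2, *Atf3* at 230 ± 209 and *Egr1* at 183 ± 35.8. In this order of 5, the libraries of each gene overlapped those of the next. *Dusp1* followed at 97.1 ± 11.8, with a range of 88.3 to 111 that lay below the *Egr1* range of 142 to 210. *Ier2* (57.8 ± 11.1) and *Jund* (55 ± 12) overlapped each other, and *Fosb* (15.8 ± 3.46) and *Myc* (8.71 ± 5.16) were the lowest. In *Cpt1b*cKO, *Jun* (254 ± 40.9) stood above *Fos* (197 ± 52.4) in mean level and the rest of the order was that of the controls. There *Egr1* (97.5 to 129 per kilobase) overlapped *Dusp1* (93.1 to 106 per kilobase).

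**Figure D3:**
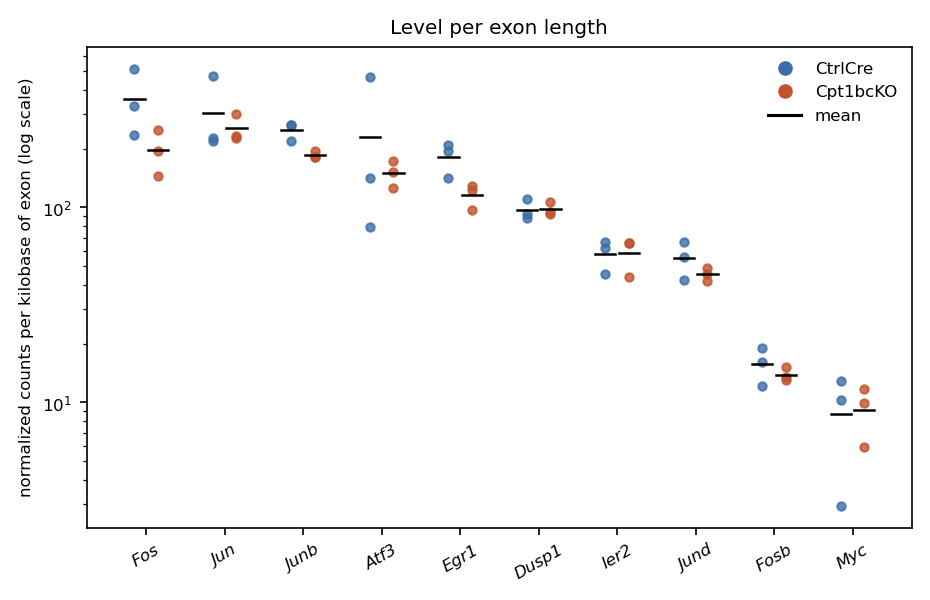
Normalized counts per kilobase of exon (vertical axis, log scale) of each immediate early gene in the 3 libraries of each group (points) with the mean (bar). *Fos* and *Jun* are at the top, *Fosb* and *Myc* at the bottom, and the *Egr1* points reach those of *Dusp1* only in *Cpt1b*cKO.

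Ratios of such levels within a library do not depend on its size factor. For the 10 genes, 10 such ratios were calculated after the values had been seen, and they are given as a description. The groups did not overlap in 5 of the 10 ratios and overlapped in the other 5. Each of the 5 without overlap had *Fos*, *Egr1* or *Junb*, already seen to be lower, as its numerator. The share of other gene pairs whose ratios do not overlap was not calculated, so the count is no result about these genes. *Fos* over *Jun* was 1.09, 1.03 and 1.5 in CtrlCre and 0.83, 0.849 and 0.624 in *Cpt1b*cKO, without overlap. *Egr1* over *Dusp1* was 2.11, 1.61 and 1.9 in CtrlCre and 1.29, 1.21 and 1.05 in *Cpt1b*cKO, again without overlap. *Junb* over *Dusp1* was 2.84, 2.47 and 2.39 against 1.9, 1.7 and 2.09, and *Fos* over *Fosb* (19.3 to 27 and 10.8 to 16.5) and *Fos* over *Dusp1* (2.66 to 5.55 and 1.57 to 2.64) did not overlap either. In contrast, *Jun* over *Dusp1* (2 to 5.1 in CtrlCre and 2.15 to 3.18 in *Cpt1b*cKO) and *Atf3* over *Jun* (0.362 to 0.99 and 0.549 to 0.654) overlapped, as did *Egr1* over *Jun* (0.414 to 0.952 and 0.407 to 0.564), *Fos* over *Egr1* (1.58 to 2.63 and 1.5 to 2.04) and *Jun* over *Junb* (0.836 to 1.79 and 1.2 to 1.67).

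The libraries differed among themselves across the genes. CtrlCre library 1 was the highest or tied highest in 7 of the 10 genes (alone in 6), CtrlCre library 3 in 4, and no *Cpt1b*cKO library was the highest for any of them. *Cpt1b*cKO library 3, which had the highest share of *mt-Rnr2* (80.8%), was the lowest in 4, and the part of that share in the values was not tested. How often each library is the highest or lowest over all tested genes was not calculated, so these counts are no result about the 10 genes. Mean log2 differences of the 10 genes from the CtrlCre mean were 0.44, −0.24 and −0.20 in CtrlCre libraries 1, 2 and 3 and −0.085, −0.22 and −0.43 in *Cpt1b*cKO libraries 1, 2 and 3. By this mean CtrlCre libraries 2 and 3 lay among the knockouts. By the median difference CtrlCre library 2 (−0.33) was as low as the lowest knockout, while CtrlCre library 3 (0.051) lay above each knockout (−0.029, −0.29 and −0.33), since its mean was lowered by *Atf3* and *Myc*. Log2 values spread more in CtrlCre than in *Cpt1b*cKO for 9 of the 10 genes, as they did for 44.6% of all tested genes. The median log2 fold change of the 10 was −0.015 without CtrlCre library 1, −0.37 without CtrlCre library 2 or 3, −0.12 without *Cpt1b*cKO library 2, and −0.28 and −0.17 without *Cpt1b*cKO libraries 1 and 3. With libraries 2 and 3 alone, a comparison added after the data had been seen, *Fos* was at −0.73 (unadjusted *P* = 0.00449, adjusted *P* = 0.0999), *Egr1* at −0.62 (unadjusted *P* = 0.0125) and *Junb* at −0.35 (unadjusted *P* = 0.0492, limma), while *Jun* was at 0.045 and *Atf3* at 0.38.

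**Figure D4:**
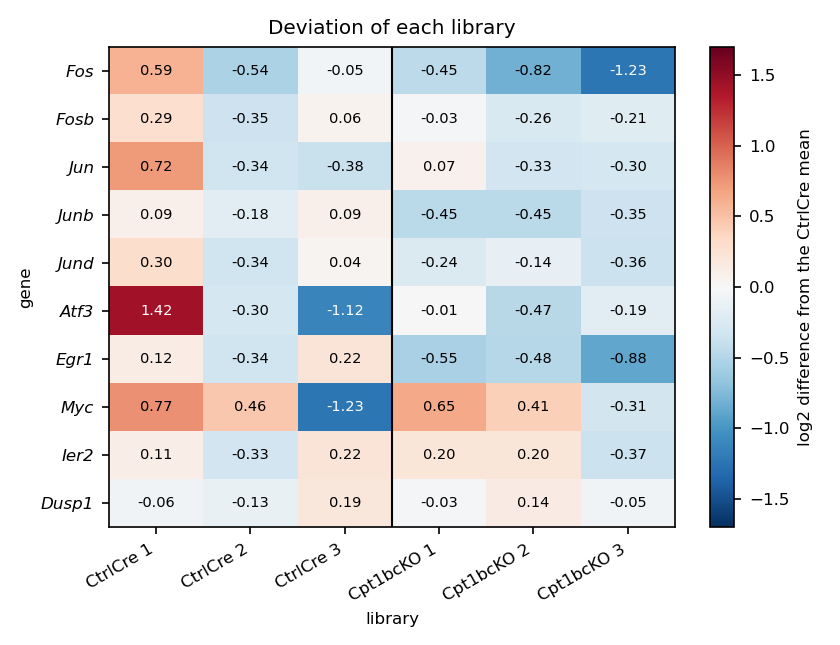
Log2 difference of each gene (rows, log2 of the normalized count plus 1) from the mean of the 3 CtrlCre libraries, for each library (columns), with red for higher and blue for lower. CtrlCre library 1 is above the mean for 9 of 10 genes and *Cpt1b*cKO library 3 is below it for 10 of 10.

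Among markers of other heart cells, those of fibroblasts differed between the groups. Summed fibroblast markers were at 482, 735 and 704 in CtrlCre and at 1241, 1184 and 1025 in *Cpt1b*cKO, and 7 of 7 tested genes of that list were higher, with 2 past the adjusted threshold (*Col1a1* and *Lum*). Endothelial markers summed to 1241, 2356 and 2620 in CtrlCre and to 2308 to 2639 in *Cpt1b*cKO, with overlap, and 8 of 8 were higher (0 past the adjusted threshold, 1 at an unadjusted *P* below 0.05 in limma). CtrlCre library 1, where most immediate early genes were highest, thus held the least RNA of both lists. Mural cell markers summed to 3947 to 5139 in CtrlCre and to 2913 to 3318 in *Cpt1b*cKO, but 3 of 7 tested were higher and 4 lower. Most of the difference in the sum lay in *Abcc9*, a potassium channel subunit gene that CMs also express, at 2839, 2867 and 2839 against 1579, 1597 and 1739 (log2 fold change −0.80, adjusted *P* = 0.0123, limma). Macrophage markers summed to 93 to 138 and 114 to 130, and 8 of 8 lymphocyte markers were not listed. CM markers were lower for 8 of 8 (median log2 fold change −0.44, 0 past the adjusted threshold, 2 at an unadjusted *P* below 0.05). The part of these cells in the values of the immediate early genes was not tested.

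Other genes of the early response were taken from lists of their families. The counts of these lists stand beside 50.2% of all tested genes that were lower. Of the 11364 tested genes, 821 (7.22%) were lower and 757 higher at an unadjusted *P* below 0.05 in limma. Of 11 tested AP-1 genes besides those above, 7 were lower and 4 higher, 3 were lower at an unadjusted *P* below 0.05, and 0 passed the adjusted threshold (median log2 fold change −0.23). *Atf4*, the factor of the integrated stress response and the most counted of this list, was at 833, 447 and 449 in CtrlCre and at 445, 425 and 493 in *Cpt1b*cKO (log2 fold change −0.28, adjusted *P* = 0.637, limma), again with a single high library, CtrlCre 1. *Atf7* was at −0.40 and *Mafg*, a small MAF protein, at 0.41, with adjusted *P* values of 0.388 and 0.381.

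Of 39 other tested immediate early genes 25 were lower and 14 higher, with 8 lower and 2 higher at an unadjusted *P* below 0.05 and 0 past the adjusted threshold (median −0.15). *Ier3*, an early gene that counters cell death, was at 123, 76 and 62 in CtrlCre and at 38, 34 and 22 in *Cpt1b*cKO. Its groups did not overlap and its adjusted *P* was just above the threshold (log2 fold change −1.42, SE 0.31, adjusted *P* = 0.0568, limma). *Socs3*, the feedback inhibitor of cytokine receptor signalling through JAK and STAT3, was at 490, 154 and 190 in CtrlCre and at 142, 88 and 72 in *Cpt1b*cKO (log2 fold change −1.32, SE 0.40, adjusted *P* = 0.162). Both had larger estimates than any of the 10 genes. *Mcl1*, an anti-apoptotic BCL2 relative and the most counted of the list, was at −0.23 (adjusted *P* = 0.573).

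Among 14 tested dual specificity phosphatases besides *Dusp1*, 9 were lower and 5 higher (median −0.17), with 2 lower and 1 higher at an unadjusted *P* below 0.05 and 0 past the adjusted threshold. *Dusp3* was at 366, 473 and 540 in CtrlCre and at 662, 625 and 582 in *Cpt1b*cKO (log2 fold change 0.45, adjusted *P* = 0.253, limma), higher in each knockout library. *Dusp10*, which acts on JNK and p38, was at 91, 55 and 55 against 42, 30 and 43 (−0.77, adjusted *P* = 0.244), and *Dusp7*, an ERK phosphatase, at −0.47 (adjusted *P* = 0.371).

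Upstream of the early genes, 15 SRF, TCF, MRTF and CREB factors were tested, of which 11 were lower and 4 higher (median −0.16, 0 past the adjusted threshold, 1 in each direction at an unadjusted *P* below 0.05). *Myocd*, the muscle cofactor of SRF, was at 444, 459 and 490 in CtrlCre and at 248, 342 and 289 in *Cpt1b*cKO (log2 fold change −0.67, SE 0.16, adjusted *P* = 0.0737, limma), with each knockout below each control. *Elk3*, a TCF partner of SRF, was at 0.38 (adjusted *P* = 0.58) and the coactivator gene *Crebbp* at −0.19 (adjusted *P* = 0.642). Of 29 MAP kinase genes 20 were lower and 9 higher (median −0.11), 2 lower and 1 higher at an unadjusted *P* below 0.05, and 0 past the adjusted threshold. *Rps6ka2*, a kinase activated by ERK, was at 0.52 and *Rps6ka5*, a histone and CREB kinase, at −0.61, with adjusted *P* values of 0.268 and 0.381, and *Mapkapk2* was at −0.11 (adjusted *P* = 0.798).

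**Figure D5:**
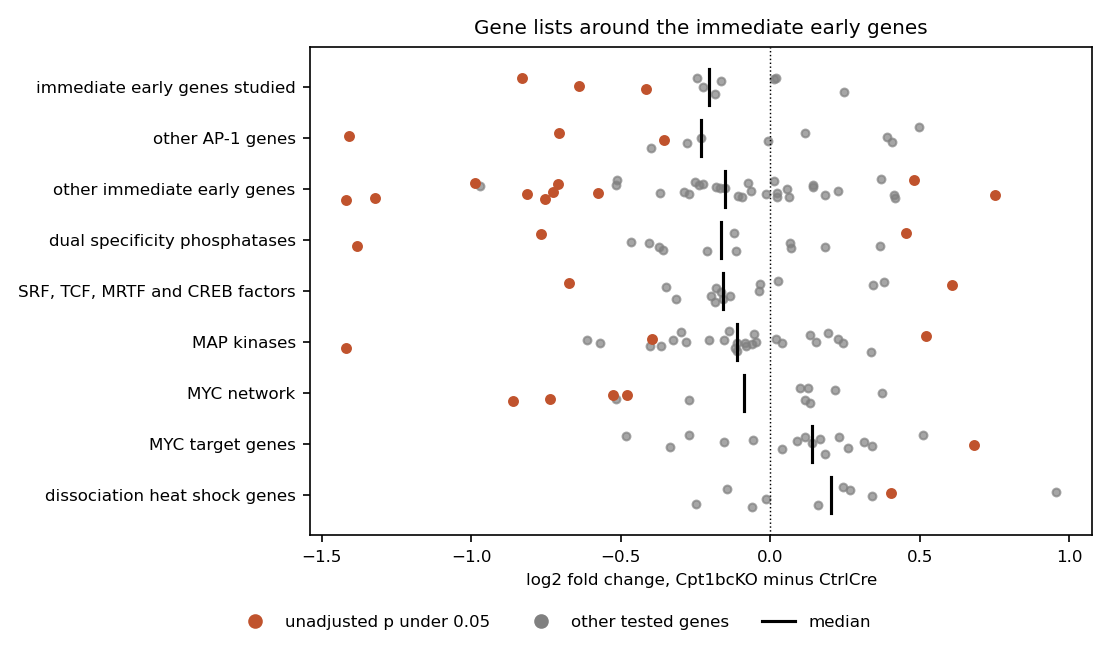
Log2 fold change of each tested gene, *Cpt1b*cKO minus CtrlCre (horizontal axis), by gene list (rows), with the median as a bar and genes at an unadjusted *P* below 0.05 in orange. Medians of the lists lie between −0.23 for other AP-1 genes and 0.20 for heat shock genes of dissociation, and no gene shown passed the adjusted threshold.

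Genes around MYC were counted in the same way. In the MYC network, the partners and antagonists of MYC, 6 of 12 tested genes were lower and 6 higher, 4 lower at an unadjusted *P* below 0.05 and 0 past the adjusted threshold. *Mxi1*, which competes with MYC for MAX, was at 273, 137 and 165 in CtrlCre and at 136, 74 and 101 in *Cpt1b*cKO (log2 fold change −0.86, adjusted *P* = 0.207, limma), and the related *Mxd1* was at −0.74 (adjusted *P* = 0.352). *Mycbp2*, a ubiquitin ligase gene and the most counted of this list, was at 609, 760 and 699 against 598, 857 and 774 (log2 fold change 0.098, adjusted *P* = 0.841). Of 17 MYC target genes 12 were higher and 5 lower (median 0.14). *Ccnd2*, a G1 cyclin gene, was at 736, 973 and 1018 in CtrlCre and at 1210, 1454 and 1708 in *Cpt1b*cKO (log2 fold change 0.68, adjusted *P* = 0.103) and was the only one of them at an unadjusted *P* below 0.05. *Ncl* was at −0.059 (adjusted *P* = 0.937) and *Eif4e* at −0.48 (adjusted *P* = 0.367).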

How the data were processed

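Adult CMs in 3 CtrlCre and 3 *Cpt1b*cKO samples were sequenced as stranded total RNA. The submitters' processing notes name FastQC 0.11.8, Trimmomatic 0.36, STAR 2.5.4b, featureCounts 1.6.0, DESeq2 1.14.1 and the mm10 (GRCm38.p5) assembly. The annotation release and the strand setting are not given in the sources used here. The deposited values, recorded as a score, are counts that the authors divided by size factors and rounded to whole numbers, so that no count model was run. Spacing of the low values gave 14900000 to 24500000 reads on genes in 4 libraries and was not resolved in 2. These reads include *mt-Rnr2*, so they are not the depth on other genes. In *Cpt1b*cKO library 3, with the most reads, *mt-Rnr2* took 80.8% of the values. There 1 read was worth 1.29 normalized counts, against 0.682 to 0.92 in the other resolved libraries. The authors' own base means, fold changes and *P* values were not used, and 0 columns lacked a sample.

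Groups were taken from the sample titles. Values were transformed to log2(value + 1), and genes with at least 10 in at least 3 samples were fitted with limma 3.58.1 (R 4.3.3; lmFit, eBayes with a trend), with two-sided *P* values adjusted by Benjamini–Hochberg over 11364 genes. Fold changes are on this scale, which understates those of low genes. On simulated data 93 of 100 log2 changes of 2 and 40 of 100 log2 changes of 1 were called. Alternatives were other scalings, filters, pseudocounts (0.5 and 5), prior variance, a replicate block and leaving out each library. The 10 genes and the lists were chosen with earlier results of these data known. Of each list, the most counted gene and the 2 largest changes at a mean of at least 50 are named, with any gene past the adjusted threshold, and the 5 genes most like the 10 in pattern. Figures and tables were made with Python 3.11.15, pandas 2.3.3 and matplotlib 3.10.9.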

Additional observations from a re-analysis of the deposited data

How the results depend on the processing

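The direction of *Fos*, *Egr1*, *Junb*, *Jund* and *Fosb* was kept in each alternative run. The size was not kept for *Fosb* and *Jund*, at −0.34 to −0.019 and −0.42 to −0.098 when 1 library was left out. Leaving out 1 library gave log2 fold changes of −0.38 to 0.17 for *Jun*, −0.79 to 0.49 for *Atf3*, −0.15 to 0.20 for *Ier2*, −0.37 to 0.63 for *Myc* and −0.047 to 0.11 for *Dusp1*. In libraries 2 and 3 alone (added after the data had been seen) *Jun* was at 0.045, *Atf3* at 0.38 and *Ier2* at −0.028. The cause was not tested. The number of the 10 genes past the adjusted threshold was 0 in each setting but the replicate block, where it was 1 (*Fos*, adjusted *P* = 0.0183, against 0.205 without the block and up to 0.517 over the alternatives), and where 603 of all tested genes (5.31%) were called in place of 178. Same-numbered samples had deviations correlated at 0.233 on average (0.376, 0.255 and 0.0684 for numbers 1, 2 and 3) and others at −0.112. Deviations were taken from the group mean, so a positive value for same numbers lowers that for the others. Of the 6 samples, 4 correlated best with their own number. These values do not settle whether the numbers mark pairs, and the main fit was planned without a block. With 1 prior variance 41 genes were called, and 40 to 305 when 1 library was left out. Setting summed counts equal moved the median of all genes to 0.11 and that of the 10 to −0.094, with 505 lower and 1221 higher genes at an unadjusted *P* below 0.05 in place of 821 and 757. *Myc* had no value when at least 10 was asked in every sample. At this size 40 of 100 simulated log2 changes of 1 were called.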

Other observations

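The 5 genes outside the immediate early genes whose log2 values followed the mean standardised pattern of the 10 most closely, out of 6788 genes averaging at least 50, were *Anapc11* (Pearson's *r* = 0.989 over 6 samples), *Eif1b* (0.988), *AU019823* (0.979), *Mrps28* (0.978) and *Prkaa1* (0.977). They were ranked on these libraries, which share the high CtrlCre library 1, and the values are a description. *Prkaa1*, a catalytic subunit gene of the energy sensor AMPK, was at 208, 135 and 156 in CtrlCre and at 146, 130 and 116 in *Cpt1b*cKO (log2 fold change −0.33, adjusted *P* = 0.514, limma). Among the 10 genes, the correlation of each with the mean of the others ran from 0.011 for *Dusp1* and 0.034 for *Myc* to 0.93 for *Fos* and 0.95 for *Jund*.

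Heat shock genes known to be induced by tissue dissociation were higher for 6 of 10 and lower for 4 (median log2 fold change 0.20), with 1 higher at an unadjusted *P* below 0.05 and 0 past the adjusted threshold in limma. *Hsp90aa1*, the stress-inducible cytosolic HSP90, was at 507, 445 and 467 in CtrlCre and at 625, 688 and 569 in *Cpt1b*cKO (log2 fold change 0.40, adjusted *P* = 0.228). *Hsph1*, an HSP110 chaperone gene, was at 488, 381 and 402 against 629, 492 and 489 (log2 fold change 0.34, adjusted *P* = 0.396). *Hsp90ab1* was at −0.014 (adjusted *P* = 0.985).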
